A study of Mus musculus with 22 samples.

Results

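The genes described here encode complement components and regulators: the early component genes C2, C3 and C4b, the lectin pathway protease gene Masp1, the alternative pathway genes Cfb and Cfp, the receptor gene C3ar1 and the inhibitor gene Serping1. Every probe set, the group of short probes that reads 1 transcript, was taken if one of these 8 symbols was its only gene symbol. This gave 13 of 36701 probe sets, for 7 of the 8 genes. No probe set carried C3 as its only symbol in the annotation used, so C3 was not analysed here, and 2 probe sets that carry a member's symbol together with another symbol were left out. The 13 probe sets lay on the 3 chip types of the mouse MG-U74v2 array set, with 8 probe sets on A, 1 on B and 4 on C.

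Complement is a cascade of plasma proteins that marks surfaces for uptake and lysis. The classical pathway starts with C1q and the proteases C1r and C1s, the lectin pathway with mannose-binding lectins or ficolins and MASP proteases, and both cut C4 and C2 into the enzyme that activates C3. The alternative pathway amplifies C3 activation through factor B, stabilised by properdin. The liver makes most plasma complement, but macrophages, fibroblasts and fat cells also transcribe several of these genes.

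Total RNA was measured in 3 groups on 22 arrays. There were 2 RNA samples from mammary tumours of PEA3-null mice, 3 from mammary tumours of mice wild type for PEA3, and 3 from normal mammary glands of FVB mice. PEA3 is an ETS transcription factor encoded by Etv4. Both tumour groups carried the Her2/Neu transgene that induced the tumours, whose promoter is not given in the sources used here, nor are the animals' ages. Per the labels the tumour RNA was pooled, normal samples carry the title of pools, and every group was sorted for Sca-1 with the same estimated purity. All 8 RNA samples were read on chips A and B, while only 6 were read on chip C (1 from PEA3-null tumours, 2 from wild-type tumours and 3 from normal glands). All arrays of a group carry the same submitters' sample identifier, and nothing states that replicates came from separate animals, so the p-values measure the spread between these samples, which may be technical.

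The promoters of C3ar1 and Cfp are shown because PEA3 binds the letters AGGAAG, and the study compares tumours by PEA3 genotype. The promoter table of RefSeq (GRCm38.p6) held 3 of the 8 genes, C3 among them, and gives 250 bases before to 50 after the gene start, 5′ to 3′ on the gene's strand. Capitals mark AGGAAG or its reverse complement CTTCCT, searched on both strands together with the interferon-gamma site TTCNNNGAA and the interferon response element, written as a pair of GAAA words with NN between them. No matches overlapped. C3ar1 lies at chr6:122856108-122856407 on the minus strand and Cfp at chrX:20931506-20931805 on the minus strand.
C3ar1: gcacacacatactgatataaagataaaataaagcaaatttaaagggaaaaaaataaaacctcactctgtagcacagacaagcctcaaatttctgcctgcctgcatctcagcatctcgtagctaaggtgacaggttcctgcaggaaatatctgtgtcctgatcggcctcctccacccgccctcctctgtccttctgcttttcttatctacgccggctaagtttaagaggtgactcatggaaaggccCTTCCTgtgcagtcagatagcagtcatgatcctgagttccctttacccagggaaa
Cfp: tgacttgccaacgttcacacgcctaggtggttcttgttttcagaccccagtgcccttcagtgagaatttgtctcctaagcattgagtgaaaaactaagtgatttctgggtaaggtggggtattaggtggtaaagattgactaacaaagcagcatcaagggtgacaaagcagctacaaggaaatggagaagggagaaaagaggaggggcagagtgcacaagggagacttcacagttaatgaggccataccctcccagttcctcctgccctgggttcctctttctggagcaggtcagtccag
The C3ar1 promoter held 1 AGGAAG match, on the reverse strand with its first base at -5 from the gene start, and 0 matches to either interferon motif, and the Cfp promoter held 0 matches to all 3 motifs. Of 32851 promoters of the same length, 35.4% held AGGAAG, 8.3% the interferon-gamma site and 3.44% the interferon response element. A match describes letters in this window and shows no binding.

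Several facts of the whole series bear on the values. Both Etv4 probe sets overlapped between the tumour groups, at 276 and 513 in PEA3-null against 360 to 420 in wild-type tumours for the probe set 92979_at, so signal did not separate the genotype labels, and probe positions are not given in the sources used here. Within each chip type, no scan day held arrays of both tumour and normal tissue, so these 2 factors cannot be told apart. The ratio of 3' to 5' signal of the GAPDH control, which rises as RNA degrades, was 2.58 to 6.08 on normal arrays and 0.91 to 1.25 on tumour arrays, while the same ratio of the actin control overlapped, at 1.28 to 2.14 and 1.14 to 1.66. On chip A, the median SD of log2 signal was 0.21 in normal glands and 0.32 in each tumour group. The deposited signals come from MAS5 and were scaled here to a trimmed mean of 500 on every array, so a value below is a scaled signal, and a value under 150 is called dim.

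In tumours of both genotypes the signals of Serping1, C2 and Cfp were below those of normal glands, while those of Cfb, C3ar1 and Masp1 did not pass the test in either direction. Serping1 encodes the C1 inhibitor, a serpin that blocks C1r, C1s and the MASP proteases, and its signal was 18.2-fold lower in wild-type tumours and 17.3-fold lower in PEA3-null tumours. C2, the serine protease of the enzyme that cleaves C3, was 3.95-fold and 5.95-fold lower at its bright chip A probe set, 103673_at. Cfp, the gene of properdin, was 2.90-fold and 2.91-fold lower, but these calls were lost in 4 of 20 and 8 of 20 alternative fits, among them each fit without 1 of the normal glands. No member passed between the tumour genotypes. In bulk RNA, fewer cells of a type and less RNA per cell cannot be told apart.

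Groups were compared with limma on log2(signal + 32), with Benjamini-Hochberg adjustment over every probe set tested and a threshold of 0.05. A probe set was tested if it reached 150 on at least 2 arrays of its chip type, and 10 of the 13 member probe sets, from 6 genes, did so. The 3 that did not were 1 probe set each of C2, C4b and Masp1. A probe set could also enter through the signal of the normal glands alone, so these counts describe the tested probe sets and not all members. In wild-type tumours against normal glands, 4 of the 10 tested probe sets were lower and 0 higher, beside 20.8% of all 28242 tested probe sets passing, 10.5% upward and 10.3% downward. The members' median log2 difference was -0.88, against 0.05 over all tested probe sets. For PEA3-null tumours against normal glands, tested on chips A and B, 3 of 7 were lower and 0 higher, beside 24.6% of all 19275 probe sets passing, 12.2% upward and 12.4% downward. There the members' median was -0.40 and that of all tested probe sets 0.08. These 2 comparisons use the same normal samples and are not independent of each other.

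**Figure D1:**
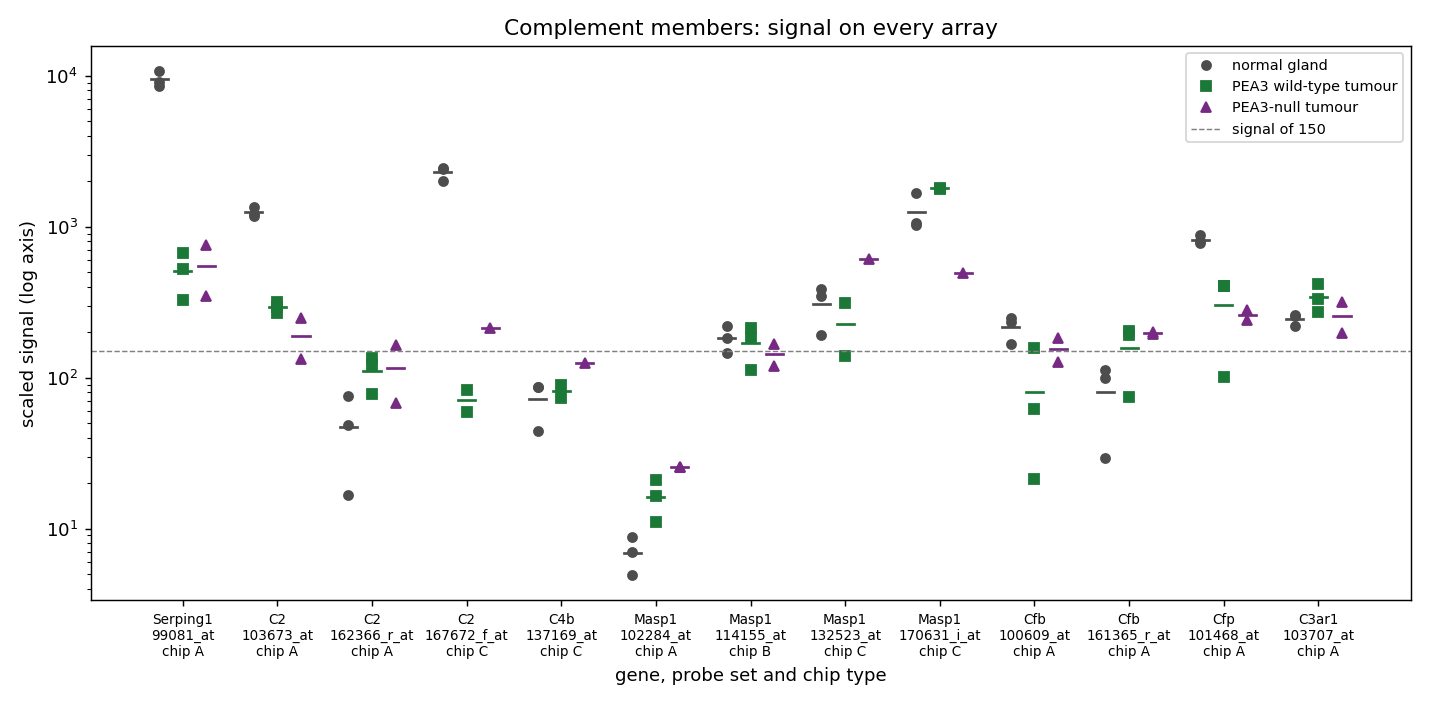
Scaled signal (log axis) of the 13 member probe sets on every array, by group, with a bar at each group's mean and a dashed line at 150. Serping1, C2 (103673_at) and Cfp lie higher in every normal gland than in any tumour, and the chip A probe set of Masp1 lies at 4.93 to 25.7 on all arrays.

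**Figure D2:**
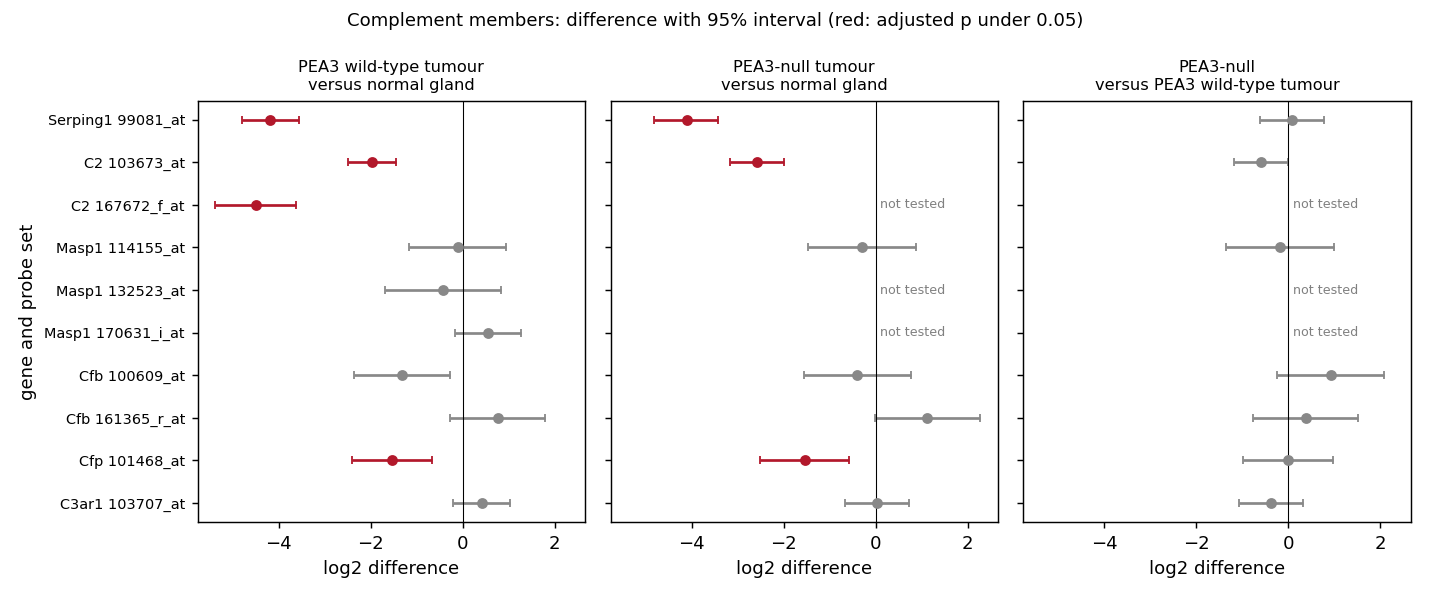
Log2 difference of each tested member probe set with its 95% interval, for the 3 comparisons. Red points have a limma adjusted p under 0.05: 4 in wild-type tumours against normal glands, 3 in PEA3-null tumours against normal glands and 0 between the genotypes. Chip C probe sets were not tested in comparisons with its single PEA3-null array.

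Masp1 encodes a protease that associates with mannose-binding lectin and ficolins, and 4 probe sets read it. The probe set on chip A, 102284_at, read between 4.93 and 25.7 on all 8 arrays and was not tested. On chip B, 114155_at read 219, 146 and 184 in normal glands, 185, 212 and 113 in wild-type tumours, and 120 and 167 in PEA3-null tumours. The 3 groups overlapped there, and the differences did not pass, at -0.11 on the log2 scale for wild-type tumours (SE 0.49, limma adjusted p = 0.912) and -0.29 for PEA3-null tumours (SE 0.54, limma adjusted p = 0.742) against normal glands. On chip C, 132523_at read 347, 192 and 389 in normal glands, 314 and 140 in wild-type tumours, and 608 on the single PEA3-null array. The wild-type and normal values overlapped (log2 difference -0.43, SE 0.56, limma adjusted p = 0.667). The brightest Masp1 probe set, 170631_i_at on chip C, read 1662, 1035 and 1060 in normal glands, 1791 and 1809 in wild-type tumours, and 497 on the PEA3-null array. Here both wild-type tumours lay above all normal glands, yet the difference of 0.55 did not pass (SE 0.32, limma adjusted p = 0.288). The single chip C array of PEA3-null tumours was thus the highest array for one Masp1 probe set and the lowest for another, and no test compares it with other groups.

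C2 on chip A (103673_at) read 1214, 1343 and 1186 in normal glands, 319, 292 and 267 in wild-type tumours, and 247 and 133 in PEA3-null tumours. Each tumour sample lay below each normal gland. In wild-type tumours C2 fell by 1.98 on the log2 scale (SE 0.24, limma adjusted p = 1.00e-04), and in PEA3-null tumours it fell by 2.57 (SE 0.27, limma adjusted p = 3.59e-05). Means were 1248 ± 84.1 (SD, n = 3), 293 ± 26.1 (SD, n = 3) and 190 ± 80.6 (SD, n = 2). A second C2 probe set, 167672_f_at on chip C, read 2420, 2457 and 2016 in normal glands, 82.7 and 59.1 in wild-type tumours and 214 on the PEA3-null array. Both wild-type values lay far below the normal range, and in wild-type tumours it fell by 4.50 (SE 0.39, limma adjusted p = 3.57e-05). Its wild-type tumour values were dim, so the 22.7-fold difference depends on the added constant: the log2 difference was -4.74 with 16 added and -4.13 with 64. The third C2 probe set, 162366_r_at on chip A, was dim on 7 of 8 arrays, at 16.6 to 75.6 in normal glands, 77.6 to 135 in wild-type tumours, and 67.8 and 164 in PEA3-null tumours. It was not tested, and its values did not show the drop of the other C2 probe sets.

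C4b encodes complement C4, the partner of C2 in the enzyme that cleaves C3. Its probe set 137169_at on chip C read 44.6, 86.6 and 87.1 in normal glands, 89.8 and 73.2 in wild-type tumours, and 126 on the PEA3-null array. All 6 arrays were dim, so C4b was not tested.

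Cfb encodes factor B, which forms the alternative pathway enzyme with C3b, and lies next to C2 on chromosome 17, with 0 coding genes between them in RefSeq (GRCm38.p6). The Cfb probe set that was brighter in normal glands, 100609_at on chip A, read 249, 166 and 233 there, 61.8, 157 and 21.4 in wild-type tumours, and 184 and 127 in PEA3-null tumours. Wild-type tumours lay below every normal gland, while PEA3-null tumours overlapped with them. The difference was -1.32 in wild-type tumours (SE 0.47, limma adjusted p = 0.0729) and -0.40 in PEA3-null tumours (SE 0.53, limma adjusted p = 0.631), and neither passed. The wild-type values of 61.8 and 21.4 were dim, so the size of the -1.32 depends on the added constant. The value in wild-type tumours passed with array weights (limma adjusted p = 0.0427) and without wild-type tumour 2 (-1.79, limma adjusted p = 0.0175).

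The other Cfb probe set, 161365_r_at, went the other way. It read 99.6, 29.4 and 113 in normal glands, 193, 74.4 and 205 in wild-type tumours, and 200 and 195 in PEA3-null tumours. Both PEA3-null values lay above all normal glands, with a difference of 1.12 (SE 0.52, limma adjusted p = 0.145), and wild-type tumours overlapped with normal glands at 0.76 (SE 0.47, limma adjusted p = 0.308). The 2 Cfb probe sets therefore gave opposite signs in both comparisons with normal glands, and neither gave a call.

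Cfp encodes properdin, which stabilises the alternative pathway enzyme and is made by myeloid cells. Its probe set 101468_at on chip A read 803, 780 and 876 in normal glands, 101, 405 and 402 in wild-type tumours, and 281 and 241 in PEA3-null tumours. All tumours lay below all normal glands, and wild-type tumour 1 was the only dim array. Cfp fell in both, with a log2 difference of -1.54 in wild-type tumours (SE 0.40, limma adjusted p = 0.0167) and -1.54 in PEA3-null tumours (SE 0.45, limma adjusted p = 0.0254). Means were 820 ± 50.2 (SD, n = 3), 303 ± 175 (SD, n = 3) and 261 ± 28.8 (SD, n = 2). These calls depended on single samples. In wild-type tumours the difference was -0.96 without wild-type tumour 1 (limma adjusted p = 0.0104), and it missed the threshold without normal gland 1, 2 or 3 (limma adjusted p = 0.0537, 0.0507 and 0.0616). In PEA3-null tumours it missed the threshold in 8 of 20 alternatives, among them those without normal gland 1, 2 or 3 (limma adjusted p = 0.0663, 0.0628 and 0.0755), without PEA3-null tumour 1 (0.0736) and without PEA3-null tumour 2 (0.103).

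C3ar1 encodes the receptor of the C3a fragment, found on myeloid cells. Its probe set 103707_at on chip A read 221, 255 and 261 in normal glands, 330, 274 and 418 in wild-type tumours, and 198 and 316 in PEA3-null tumours. Wild-type tumours lay above all normal glands, by 0.41 on the log2 scale, which did not pass (SE 0.28, 95% interval -0.21 to 1.03, limma adjusted p = 0.369). PEA3-null tumours fell on both sides of the normal range, with a difference of 0.03 (SE 0.32, limma adjusted p = 0.957). A difference of up to 1.03 in wild-type tumours lies within the interval, so the test does not show that C3ar1 was level.

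Serping1 was the brightest member in normal glands by signal, although levels of different probe sets cannot be ranked as expression. Its probe set 99081_at on chip A read 9114, 10752 and 8544 in normal glands, 326, 529 and 671 in wild-type tumours, and 348 and 755 in PEA3-null tumours. The highest tumour value was far below the lowest normal value, and the ranges of the 2 tumour groups overlapped. Means were 9470 ± 1146 (SD, n = 3), 509 ± 173 (SD, n = 3) and 551 ± 288 (SD, n = 2). The log2 difference was -4.18 in wild-type tumours (SE 0.28, limma adjusted p = 1.22e-06) and -4.11 in PEA3-null tumours (SE 0.32, limma adjusted p = 3.77e-06). It passed in all 20 alternative fits in each of these comparisons, as did C2 on chip A.

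Across the 10 tested member probe sets, from 6 genes, groups did not overlap for 7 in wild-type tumours against normal glands. There 41.9% of all tested probe sets did not overlap. For PEA3-null tumours against normal glands this held for 4 of 7, against 53.3% of all tested probe sets.

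The comparison between the tumour groups asks whether the PEA3 genotype label goes with complement signal. Of the 7 member probe sets tested, 0 passed with limma, beside 0.192% of 19275 probe sets passing, 0.119% upward and 0.0726% downward. An unadjusted p under 0.05 was seen for 1 of the 7, beside 10.5% of all tested probe sets. That one was C2 on chip A, whose PEA3-null values of 247 and 133 lay below the wild-type range of 267 to 319, a log2 difference of -0.59 (SE 0.27, 95% interval -1.18 to -0.01, limma adjusted p = 0.465). It was also the only tested member probe set whose tumour groups did not overlap, beside 22.8% of all tested probe sets. The other C2 probe sets, not tested between the genotypes, did not share this direction. At 167672_f_at the single PEA3-null array read 214, above the wild-type values of 82.7 and 59.1. At 162366_r_at the tumour groups overlapped, at 67.8 and 164 against 77.6 to 135. Serping1 differed by 0.07 (95% interval -0.63 to 0.77, limma adjusted p = 0.963). The Cfp difference was 0 to 2 decimals, with an interval of -0.98 to 0.97 (limma adjusted p = 0.998). C3ar1 differed by -0.38 (95% interval -1.07 to 0.32, limma adjusted p = 0.716). For Cfb the difference was 0.92 at the brighter probe set (95% interval -0.24 to 2.08, limma adjusted p = 0.577) and 0.37 at the other (limma adjusted p = 0.851). Masp1 on chip B differed by -0.18 (95% interval -1.36 to 0.99, limma adjusted p = 0.94), on a chip type where scan day and chip lot also differed between the genotypes. Each of these intervals is wider than 1 log2 unit, so the test does not show that the genotypes were alike.

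Interferon-induced genes, many of them antiviral, were higher in PEA3-null than in wild-type tumours at 9 of 14 tested markers and lower at 0. Their summed signal on chips A and B was 20201 to 25175 in normal glands, 12172 to 17215 in wild-type tumours and 35580 to 38732 in PEA3-null tumours. Against normal glands, 6 of the 14 were lower and 0 higher in wild-type tumours. In PEA3-null tumours 2 were lower and 6 higher than in normal glands. Of all tested probe sets, 0.119% were higher and 0.0726% lower in PEA3-null than in wild-type tumours. With array weights only 3 of all probe sets passed between the genotypes (37 as reported), so most of these 9 calls are lost in that fit. The marker list was chosen with earlier results of these data known. Between the tumour groups the members' median log2 difference was 0, and that of all tested probe sets 0.01.

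Other complement genes, read by 59 probe sets of 38 genes, were described from a pathway list. Of 46 tested, 2 were higher and 8 lower in wild-type tumours against normal glands, with a median log2 difference of -0.21. This is 21.7% called, near the 20.8% of all tested probe sets. Of 43 tested in PEA3-null tumours, 4 were higher and 9 lower, with a median of -0.17, which is 30.2% called beside 24.6% of all tested probe sets. Nothing particular to the list is read from these shares. The serine protease C1s, partner of C1r in the C1 complex and a target of the Serping1 product, was read by C1s1 (106304_at). C1s1 read 4609 ± 341 in normal glands (SD, n = 3), 172 ± 52.5 in wild-type tumours (SD, n = 3) and 361 ± 70.9 in PEA3-null tumours (SD, n = 2). Its log2 difference was -4.53 in wild-type tumours (limma adjusted p = 1.50e-07) and -3.57 in PEA3-null tumours (limma adjusted p = 3.28e-06), so the signals of a protease gene and of its inhibitor gene, Serping1, were both low in tumours. C1ra, the other C1 protease, fell at both probe sets. Its log2 differences were -1.92 and -1.61 in wild-type tumours (limma adjusted p = 0.00204 and 2.03e-04) and -2.51 and -1.75 in PEA3-null tumours (limma adjusted p = 6.71e-04 and 2.70e-04). At 95414_i_at, which gave the -2.51, both PEA3-null values were dim, at 130 and 124, so its size depends on the added constant.

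The genes of the C1q subunits, which recognise the target, had other values than those of the proteases. C1qa rose by 2.03 in wild-type tumours (limma adjusted p = 3.57e-05) and by 1.95 in PEA3-null tumours (limma adjusted p = 1.23e-04). It read 1245 ± 276 in normal glands (SD, n = 3), 5213 ± 1284 in wild-type tumours (SD, n = 3) and 4859 ± 797 in PEA3-null tumours (SD, n = 2). C1qb rose at its brighter probe set by 0.54 (limma adjusted p = 0.0344) and 0.55 (limma adjusted p = 0.0467), but its other probe set read -0.46 and -0.34 and did not pass. C1qc, named with C1qb after the values were seen, did not pass at 92223_at, with differences of -0.36 and -0.17 (limma adjusted p = 0.331 and 0.694). Its chip C probe set, 136279_at, read 739 to 801 in normal glands, 663 and 679 in wild-type tumours and 131 on the single PEA3-null array, and the wild-type difference of -0.20 did not pass (limma adjusted p = 0.771). The proteins of these 3 genes assemble into C1q, and the difference between their changes was not tested.

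Fcna, a ficolin that starts the lectin pathway, fell at its brighter probe set, with -2.51 in wild-type tumours (limma adjusted p = 0.00209) and -2.64 in PEA3-null tumours (limma adjusted p = 0.00291), while its dimmer probe set gave 0.36 and -0.01 and did not pass. At the brighter probe set all 5 tumour arrays were dim, at 20.4 to 148 against 555 to 595 in normal glands, so it entered the test through the normal glands alone and the size of its difference depends on the added constant. Vtn, the gene of vitronectin, an inhibitor of the membrane attack complex, fell in both, with -2.55 and -1.87 (limma adjusted p = 7.18e-04 and 0.00991). It too was dim on all tumour arrays, at 27.6 to 107 against 301 to 485 in normal glands, with the same limit. Cr2, a receptor of C3 fragments on B cells, fell by 1.80 in wild-type tumours (limma adjusted p = 0.0396) and gave -0.47 in PEA3-null tumours, where it did not pass. Its wild-type values were dim, at 12.0 to 41.0. Cd93, a surface protein of endothelial and myeloid cells that was first described as a C1q receptor, fell at 93454_at, with -1.76 and -2.09 (limma adjusted p = 2.75e-04 and 1.86e-04). Its probe set 110181_at fell by 3.14 in PEA3-null tumours (limma adjusted p = 0.00176), and its difference of -1.57 in wild-type tumours did not pass (limma adjusted p = 0.0535). Both PEA3-null values of 110181_at were dim, at 80.3 and 93.7, so the size of that fall depends on the added constant. C1qtnf1, a C1q-like secreted protein outside the cascade, fell by 3.03 at 109336_at in wild-type tumours (limma adjusted p = 1.65e-04), and its 3 other probe sets did not pass there, at 0.50, 0.30 and -0.14. The wild-type values of 109336_at were 135, 81.5 and 351, the first 2 of them dim, so the size of that fall depends on the added constant. In PEA3-null tumours 109336_at did not pass (-1.30, limma adjusted p = 0.0613), whereas 103676_at rose by 1.47 (limma adjusted p = 0.00608), so the direction of C1qtnf1 depended on the probe set. Of the 6 tested probe sets of terminal pathway genes, 0 passed in either comparison with normal glands. Between the genotypes 0 of 43 passed with limma, and 5 (11.6%) had an unadjusted p under 0.05, beside 10.5% of all tested probe sets.

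**Figure D3:**
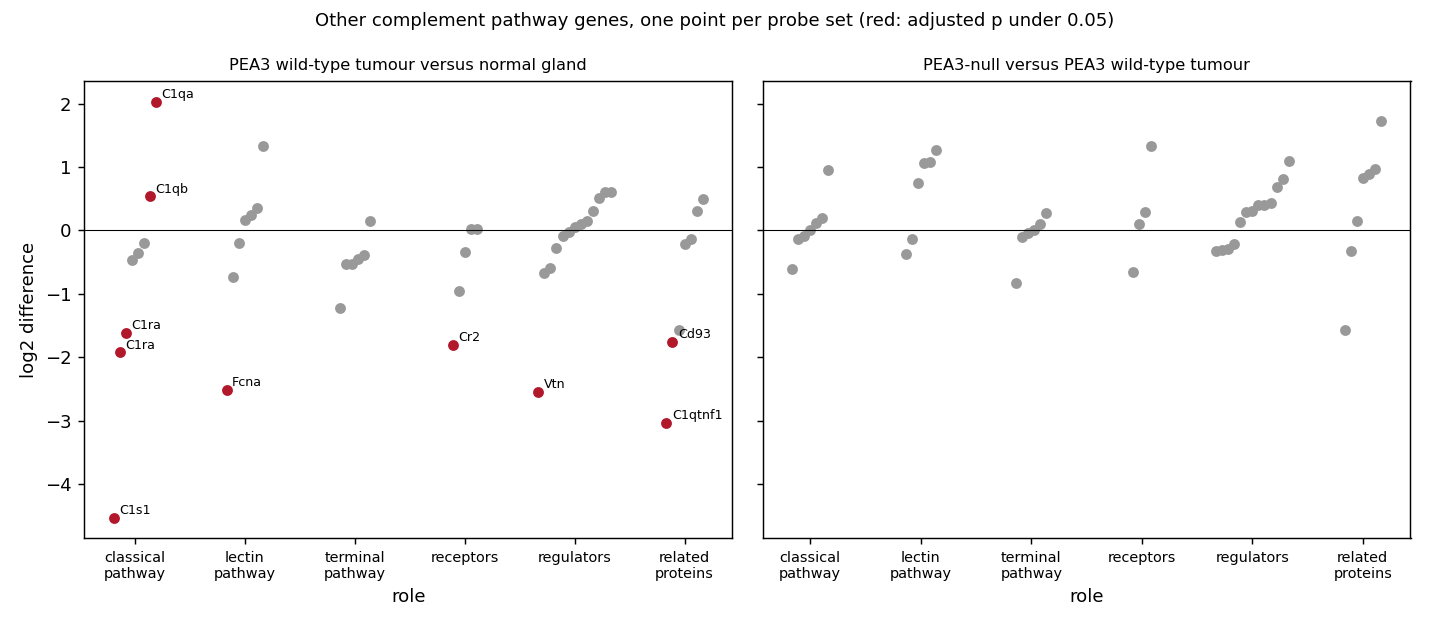
Log2 difference of each tested probe set of the other complement genes, by role, in wild-type tumours against normal glands (left) and between the genotypes (right). Red points have a limma adjusted p under 0.05. On the left 18 points lie above 0 and 28 below, and of the red ones C1qa (2.03) and a C1qb probe set (0.54) lie above 0 and 8 below, with C1s1 lowest at -4.53. On the right no point is red.

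Marker lists of other cell types were read beside the members. Of all tested probe sets, 10.5% rose and 10.3% fell in wild-type tumours against normal glands, and 12.2% rose and 12.4% fell in PEA3-null tumours. On chips A and B the summed signal of 11 fibroblast markers was 73664 to 76551 in normal glands, 5530 to 7139 in wild-type tumours and 5236 to 6931 in PEA3-null tumours. Of these markers 9 fell in wild-type and 10 in PEA3-null tumours, and 0 rose in either. All 9 adipocyte markers fell in both, with sums of 60822 to 65747 in normal glands, 1805 to 2337 in wild-type tumours and 2702 to 3543 in PEA3-null tumours. Of 14 macrophage markers 5 fell and 0 rose in each tumour group, and their sums were 18600 to 22005 in normal glands, 11990 to 15584 in wild-type tumours, and 12461 and 22799 in PEA3-null tumours, which lie on both sides of the normal range. At the brightest probe set of each, the macrophage receptor gene Csf1r ranged from 2155 to 2346 in normal glands, 469 to 848 in wild-type tumours and 443 to 810 in PEA3-null tumours, while Tyrobp overlapped in all groups, at 1067 to 1982 in wild-type tumours against 1074 to 1419 in normal glands. Cd14, which did not pass, lay above every normal gland (2266 to 2745) in both tumour groups. It ranged from 2752 to 6048 in wild-type and from 3069 to 10219 in PEA3-null tumours. The macrophage sums of tumours therefore depend strongly on this 1 bright marker. No marker was listed at 0, and of the macrophage list Aif1 in wild-type tumours and Cd163 and Mrc1 in PEA3-null tumours were dim on all arrays. Although the labels name sorting for Sca-1, the normal glands also held skeletal muscle signal, with 6 markers summing to 156250 to 161250 there, 639 to 730 in wild-type tumours and 524 to 2834 in PEA3-null tumours. Of 7 tested mammary epithelial markers, 6 rose and 1 fell in wild-type tumours and 5 rose and 1 fell in PEA3-null tumours, with sums of 7015 to 8641 in normal glands, 33913 to 38917 in wild-type tumours and 36717 to 40738 in PEA3-null tumours. The keratin gene Krt19 was the one that fell, from 1958 to 2186 in normal glands to 10.5 to 22.4 in wild-type and 96.3 to 276 in PEA3-null tumours. The part of these marker lists in the falls of Serping1, C2 and Cfp was not tested, nor was that of the GAPDH ratio, which did not overlap between tumour and normal arrays.

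**Figure D4:**
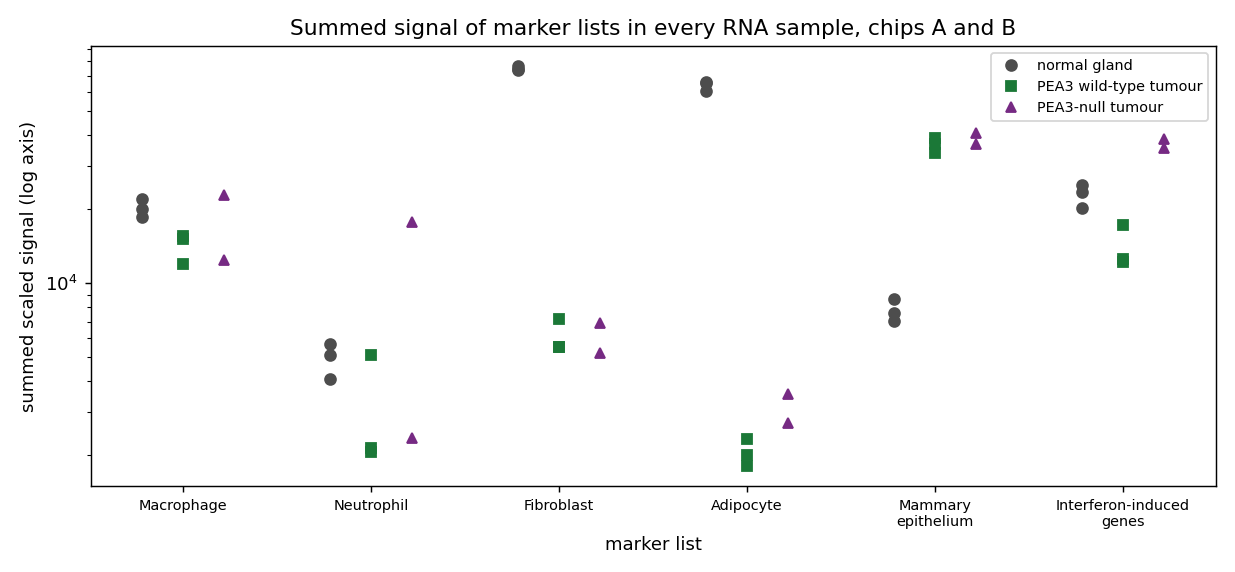
Summed scaled signal (log axis) of 6 marker lists in each RNA sample, on chips A and B. Fibroblast and adipocyte sums lie lower in all 5 tumour samples than in the 3 normal glands, mammary epithelial sums higher, and macrophage sums lie below the normal range in wild-type tumours and on both sides of it in PEA3-null tumours (12461 and 22799). The macrophage sums include Cd14, which ranged from 3069 to 10219 in PEA3-null tumours against 2266 to 2745 in normal glands.

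For each member's brightest tested probe set, the genes most like it were found by Pearson's r of log2 signal over the arrays of its chip type, as a description. Arrays fall into tissue groups, so genes that differ between tumour and gland correlate with each other. Over 8 arrays Serping1 was most like Zhx1 (r = 0.997), Tkt (0.996) and Cpa3 (0.995), the last a protease gene of mast cells. Cfp was most like Septin4 (0.99), Gstm3 (0.973) and Apbb1ip (0.966). Cfb was most like Il10rb (0.959), Ifnar1 (0.941) and P4ha1 (0.94), and C3ar1 most like Myo1c (0.941), Mdfi (0.933) and Acad9 (0.922). Over the 6 arrays of chip C, C2 was most like Slc14a1 (0.997), Slc1a5 (0.996) and Ehd2 (0.995), and Masp1 most like Mrvi1 (0.981), AU022754 (0.976) and Mdga1 (0.974).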

How the data were processed

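The authors made linear intensities per probe set with MAS5, per the submitters' processing notes, which give no version or settings. The deposited instrument files contain run settings in text form, other than measurements, and gave scan days, chip lots and wash records. The 2% trimmed mean of the deposited intensities lay between 1500.28 and 1501.06 on every array.

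Intensities were rescaled so that the 2% trimmed mean of an array over the probe sets that are not controls was 500, 32 was added and log2 was taken, which understates folds of dim probe sets. Probe sets reaching 150 on at least 2 arrays of their chip type were fitted with limma 3.58.1 in R 4.3.3 (lmFit, eBayes with trend), per chip type and with all 3 groups in the fit. Two-sided p-values were adjusted by Benjamini-Hochberg over 28242 (wild-type tumours against normal glands, 3 chip types) or 19275 probe sets (PEA3-null comparisons, chips A and B). The fits were tested on simulated data. Of 36701 probe sets, 29131 had 1 symbol, 724 several and 6846 none, and 29044 matched RefSeq by gene identifier. The number of arrays limits the precision.

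Members, lists and tests were chosen with earlier results of these data known. All member probe sets are given. From the other complement list up to 8 probe sets per comparison were named, those past the threshold without overlap, by size of difference. Alternatives concerned scaling, the constant, the filter, the arrays and chip types fitted, a fold minimum, how the variance was modelled, a block for the replicate number and each sample left out. Leaving out normal glands 1 and 2, whose chip A wash record says aborted, and scaling with control probe sets were added after seeing the data.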

Additional observations from a re-analysis of the deposited data

How the results depend on the processing

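The count of member probe sets past the threshold was 3 to 5 in wild-type tumours against normal glands (4 as reported) and 2 to 4 in PEA3-null tumours against normal glands (3 as reported) over 21 alternatives each, always lower in tumours, and 0 between the genotypes over 22. With each sample left out in turn it was 3 to 5, 2 to 3 and 0. For the other complement genes this gave 8 to 11, 9 to 13 and 0, and for all probe sets 4144 to 6589, 3432 to 4914 and 3 to 241. A group left with 1 sample takes its spread from the others in such fits. Without normal glands 1 and 2, a setting chosen after seeing the data, the other complement genes gave 5 calls in each tumour group (10 and 13 as reported) and all probe sets 2093, 1709 and 5. There Serping1 and C2 still passed in both tumour groups, and Cfp did not (limma adjusted p = 0.188 and 0.192). Scaling with control probe sets included changed no count of member probe sets. All probe sets between the genotypes (37 as reported) gave 15 with no filter, 6 with only both tumour groups in the fit, 4 without the variance trend, 3 with array weights, 63 with chip C added and 6 on chip A with tumours alone. The causes were not tested.

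Deviations of same-numbered samples from their group means correlated at -0.11 to 0.07. With 2 or 3 samples per group, deviations balance within a group. These correlations therefore cannot show whether same-numbered samples were handled together. With the replicate block, 4 member probe sets were called in wild-type tumours, 2 in PEA3-null tumours and 0 between the genotypes, where all probe sets gave 3. Cfp in PEA3-null tumours then had a log2 difference of -1.38 (limma adjusted p = 0.0584), and without the variance trend it also missed the threshold (limma adjusted p = 0.0591).

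Small differences that were not called changed sign in 15 cases. Between the genotypes Cfp gave 0.01 with 16 added, 0.16 with the replicate block and -0.58 to 0.28 with each sample left out. Over samples left out, Serping1 ran from -0.46 to 0.60, Masp1 on chip B from -0.41 to 0.01 and Cfb (161365_r_at) from -0.01 to 0.57. In wild-type tumours against normal glands, Masp1 ran from -0.26 to 0.12 on chip B and from -0.94 to 0.07 at 132523_at. C3ar1 in PEA3-null tumours against normal glands ran from -0.27 to 0.33, and was -0.05 without normal glands 1 and 2. The causes were not tested.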
